A study of Mus musculus with 16 samples.

Results

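The genes of fatty acid and sterol synthesis described here are Srebf1, Acly, Acaca, Fasn, Elovl6, Scd1, Hmgcs1 and Fdps, measured in gastrocnemius, the large calf muscle, of 16 mice. They were taken by symbol: every probe on the Illumina bead array that carried 1 of these 8 names was used, which gave 9 of 25697 probes, Srebf1 having 2. All 8 genes kept a probe after dim probes were removed, among 10295 genes tested. The mice were of strain B6C3F1/J and were wild type or N17182Q transgenic, a genotype the labels write as Tg/+. The transgene is known to encode the N-terminal part of huntingtin carrying a long polyglutamine tract, under a prion promoter, which is not specific to muscle, and so models a fragment and not the full protein. Each genotype received vehicle or the histone deacetylase inhibitor 4b, to learn how the drug acts on muscle expression. Of the wild-type mice 4 had vehicle and 5 had 4b, and of the transgenic mice 4 had vehicle and 3 had 4b, with 1 array per animal. The labels do not state the dose, the length of treatment, or the age and sex of the animals.

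Fatty acids are built in the cytosol from citrate that leaves the mitochondrion. Acly cleaves citrate to acetyl-CoA, Acaca carboxylates it to malonyl-CoA, Fasn joins the units into palmitate, Elovl6 lengthens palmitate, and Scd1 sets the first double bond. Sterol synthesis starts from the same acetyl-CoA, which Hmgcs1 turns to HMG-CoA on the way to mevalonate, and Fdps makes farnesyl diphosphate further down. Srebf1 encodes the transcription factors SREBP-1a and SREBP-1c, which reach the nucleus after cleavage and bind sterol regulatory elements in promoters of the fatty acid branch, while SREBP-2, from Srebf2, acts mainly on the sterol branch. Liver and adipose tissue make far more fatty acid than muscle does, and in muscle Srebf1 is known to answer to insulin and feeding.

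The promoters of 3 of these genes are shown because the results turn on the regulator Srebf1 and because Fasn and Hmgcs1 are textbook SREBP targets of either branch. Of the 8 genes, 6 had a window of 250 bases before to 50 after an annotated start in the RefSeq promoter table (build GRCm38.p6), 8 windows in all. The windows below are printed 5′ to 3′ on the gene's strand. Srebf1 has 3 annotated starts, all on the minus strand, at chr11:60210422-60210721 (window 1), chr11:60220578-60220877 (window 2) and chr11:60222532-60222831 (window 3). The Fasn window is chr11:120824498-120824797 on the minus strand and the Hmgcs1 window chr13:119690101-119690400 on the plus strand. Capitals mark matches on either strand to 4 motifs: the sterol regulatory element TCACNCCAC, the NF-Y box CCAAT, the E-box CACGTG and the GC box GGGCGG.
Srebf1 promoter window 1: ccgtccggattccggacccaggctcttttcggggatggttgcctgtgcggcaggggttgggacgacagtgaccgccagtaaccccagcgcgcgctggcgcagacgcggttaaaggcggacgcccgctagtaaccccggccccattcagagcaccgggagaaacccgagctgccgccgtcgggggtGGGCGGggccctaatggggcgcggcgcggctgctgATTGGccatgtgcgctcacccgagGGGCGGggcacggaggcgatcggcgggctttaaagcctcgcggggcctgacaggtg
Srebf1 promoter window 2: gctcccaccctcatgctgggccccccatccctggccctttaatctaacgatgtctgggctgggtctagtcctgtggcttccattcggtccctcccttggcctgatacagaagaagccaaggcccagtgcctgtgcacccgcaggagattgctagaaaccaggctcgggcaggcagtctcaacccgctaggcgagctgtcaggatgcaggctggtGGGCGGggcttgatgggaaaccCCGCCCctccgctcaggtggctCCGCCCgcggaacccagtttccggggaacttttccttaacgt
Srebf1 promoter window 3: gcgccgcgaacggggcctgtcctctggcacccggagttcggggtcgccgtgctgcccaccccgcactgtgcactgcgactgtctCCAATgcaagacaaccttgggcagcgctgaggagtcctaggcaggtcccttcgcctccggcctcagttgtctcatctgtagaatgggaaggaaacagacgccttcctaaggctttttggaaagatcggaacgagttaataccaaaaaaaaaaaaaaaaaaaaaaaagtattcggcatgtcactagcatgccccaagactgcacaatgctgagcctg
Fasn promoter: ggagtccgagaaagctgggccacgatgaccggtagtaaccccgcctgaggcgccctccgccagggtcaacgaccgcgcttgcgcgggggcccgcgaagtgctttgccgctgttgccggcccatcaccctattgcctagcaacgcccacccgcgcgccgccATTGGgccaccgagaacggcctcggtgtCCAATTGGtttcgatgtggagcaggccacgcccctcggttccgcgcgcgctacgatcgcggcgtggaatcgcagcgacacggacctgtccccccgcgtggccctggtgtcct
Hmgcs1 promoter: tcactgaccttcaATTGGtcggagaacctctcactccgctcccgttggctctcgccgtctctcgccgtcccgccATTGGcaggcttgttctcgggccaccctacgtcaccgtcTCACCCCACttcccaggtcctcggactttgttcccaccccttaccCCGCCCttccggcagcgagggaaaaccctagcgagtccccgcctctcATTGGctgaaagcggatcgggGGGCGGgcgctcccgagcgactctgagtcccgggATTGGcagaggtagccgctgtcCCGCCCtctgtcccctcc
The sterol regulatory element occurred once among the 8 windows, in Hmgcs1, and 1.24% of 32851 windows in the table hold it. The NF-Y box was found 4 times in the Hmgcs1 window, 3 times in Fasn, once in Acly and once in each of Srebf1 windows 1 and 3, against 37.4% of all windows with at least 1. The GC box was found in Acly, Hmgcs1 and Srebf1 windows 1 and 2 (35.7% of all windows), and the E-box, held by 7.15% of all windows, in none of the 8. The Acaca and Elovl6 windows held none of the 4 motifs. The last 2 NF-Y matches in Fasn overlap, on opposite strands. A match describes only these letters in this window.

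Muscle markers stood where the labelled tissue puts them: the means of Ckm, Acta1, Tnnt3 and Myh4 lay between the 98.4 and 99.9 percentiles of the tested genes. The share of probes detected (detection p under 0.05) ran from 42.7% to 50.3% by array, and pairs of arrays correlated at 0.901 to 0.985. Markers of adipocytes were present too. Of 15 listed, 13 were tested, and the defining markers Adipoq and Cidec were detected on all 16 arrays and Plin1 on 5. The adipocyte score, which is the mean log2 level of these markers less its mean in the vehicle-treated wild type, ran from -0.85 to 2.02 in wild-type mice given vehicle, from -0.61 to 2.16 in wild-type mice given 4b, and in transgenic mice from -0.64 to 0.33 with vehicle and from -0.82 to 0.61 with 4b. Animals 1 and 3 of the wild-type mice given 4b stood apart by Ucp1, the uncoupling protein that defines brown fat, at 11.02 and 12.05 log2 units against 4.58 to 7.02 on the other arrays. The score of Ucp1 with Cidea was 5.33 and 5.69 in these 2 animals and lower on every other array. Results that rest on these 2 arrays are given with and without them, a choice made after the values were seen. In whole muscle, fewer cells of a type and less RNA per cell cannot be told apart.

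Srebf1 was the member that separated the genotypes. Every transgenic animal had less of it than every wild-type animal, with either treatment. Its values, like all levels below, are background-corrected, quantile-normalised intensities in log2 units. In wild-type mice given vehicle they were 7.02, 6.49, 6.41 and 7.12. Wild-type mice given 4b had 8.78, 6.44, 6.60, 7.20 and 6.86. Transgenic mice given vehicle had 5.02, 5.95, 5.33 and 5.66, and those given 4b had 4.67, 4.87 and 5.32. The lowest wild-type value, 6.41, thus lay above the highest transgenic value, 5.95, and animal 1 of the wild-type mice given 4b was the highest. The probe was above background on 4 of 4 and 5 of 5 wild-type arrays, on 2 of 4 arrays of transgenic mice given vehicle and on 0 of 3 given 4b.

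**Figure D1:**
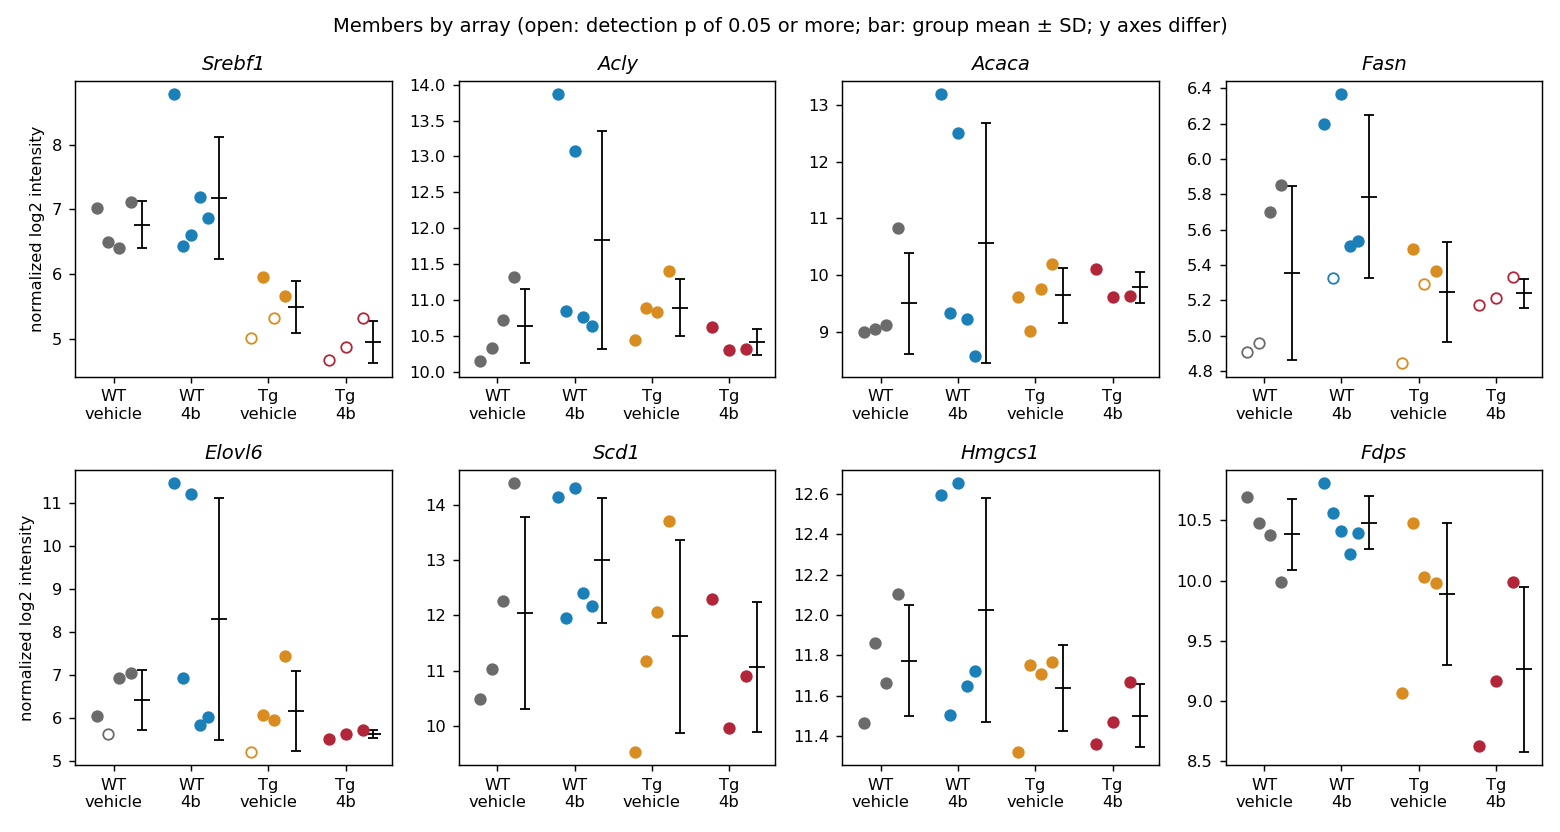
Log2 intensity of each of the 8 genes on every array, 1 point per animal, by genotype and treatment, with the mean and SD of each group beside the points and open points where the probe was not above background. Srebf1 lay at 4.67 to 5.95 in the 7 transgenic animals and at 6.41 to 8.78 in the 9 wild-type animals, while animals 1 and 3 of the wild-type mice given 4b stood high for Acly, Acaca and Elovl6.

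With vehicle, 0 of the 8 genes passed the limma test between genotypes at an adjusted p under 0.05, where 5.3% of all genes tested did. At an unadjusted p under 0.05 there was 1, Srebf1, and 21.3% of all genes. Of the 8 differences 6 were negative, with a median of -0.20 against 0.01 over all genes. Without the arrays of adipocyte score over 1, 4 of the 8 were positive and the median was 0.02, against 0.01 over all genes. The mean of Srebf1 was 6.76 ± 0.36 (SD, n = 4) in wild-type and 5.49 ± 0.40 (SD, n = 4) in transgenic mice, a log2 difference of -1.27 ± 0.40 (SE) with a limma adjusted p of 0.0799. The groups did not overlap, which was true of 12.9% of all genes. Because 1 estimate of spread serves all 4 groups, the highest array of another group weighs on this test: without animal 1 of the wild-type mice given 4b the difference stayed -1.27, with an adjusted p of 0.0126 in limma, and without both arrays with high Ucp1 the adjusted p was 0.0171. Fitted on the 8 arrays of the vehicle groups alone, it was 0.0537 and not called. The size also depended on the treatment of background, being -0.54 (limma adjusted p = 0.223) in uncorrected log2 values.

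With 4b the genotypes differed in Srebf1 beyond the spread. The means were 7.18 ± 0.94 (SD, n = 5) in wild-type and 4.95 ± 0.33 (SD, n = 3) in transgenic mice. Since no transgenic array was above background here, the change is a bound, for this background correction and with all wild-type arrays kept. By it Srebf1 was at least 3.34-fold lower in transgenic mice given 4b. The measured log2 difference was -2.22 ± 0.42 (SE), with a limma adjusted p of 0.00177. Without the 2 arrays with high Ucp1 the measured difference was -1.88 ± 0.29 (SE), adjusted p = 0.00249 in limma. In uncorrected log2 values it was -1.04 with all arrays, or 2.05-fold (limma adjusted p = 0.00846), so the size depended on the treatment of background here too. Averaged over both treatments, a comparison added after the values were seen, the log2 difference was -1.75 ± 0.29 (SE) with a limma adjusted p of 0.000515, and 33.2% of all genes were called in it, 15.4% lower. All 7 transgenic values lay below all 9 wild-type values, as for 5.73% of all genes in either direction. The exact two-sided permutation test over the 11440 divisions of the animals gave p = 8.74e-05, the smallest it allows, or 0.000699 adjusted over the 8 genes. The divisions ignore treatment, and the complete separation just given fixes this p, so it is no separate evidence.

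The second Srebf1 probe gave no reading. Its intensity was 94.2 to 117 over the 16 arrays, and it was above background on 0 of them, so it was not tested. Which of the 3 annotated starts printed above the measured transcripts use cannot be read from either probe here. Within each genotype Srebf1 did not pass the test for 4b. The log2 difference between 4b and vehicle was 0.42 ± 0.38 (SE) in wild-type mice and -0.54 ± 0.43 (SE) in transgenic mice, with limma adjusted p-values of 1 and 0.608.

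None of the fatty acid enzymes Acly, Acaca, Fasn, Elovl6 and Scd1 passed the limma test between genotypes with vehicle, and none had an unadjusted p under 0.05. Acly, which supplies the acetyl-CoA, had 10.17, 10.34, 10.73 and 11.32 log2 units in wild-type mice given vehicle and 10.45, 10.90, 10.84 and 11.41 in transgenic mice given vehicle. The 2 groups overlapped, and the log2 difference was 0.26 ± 0.60 (SE), with a 95% interval of -1.01 to 1.53 (limma adjusted p = 0.852). Elovl6, the elongase of palmitate, had 6.05, 5.64, 6.94 and 7.05 in wild-type and 5.21, 6.07, 5.95 and 7.44 in transgenic mice given vehicle, again overlapping, with a difference of -0.26 ± 1.09 (SE), adjusted p = 0.922 in limma. For Acaca, Fasn and Scd1 the differences were 0.14, -0.11 and -0.42, with limma adjusted p-values of 0.942, 0.866 and 0.846. The 95% intervals were -1.65 to 1.93 for Acaca, -2.58 to 2.07 for Elovl6 and -2.42 to 1.57 for Scd1. A change anywhere within these ranges was compatible with the values. Arrays of the other groups weigh on these intervals too, since 1 estimate of spread serves all 4 groups. Without the 2 arrays with high Ucp1 the SE was 0.38 for Acaca, 0.43 for Elovl6 and 0.90 for Scd1, against 0.84, 1.09 and 0.94. Animal 4 of the wild-type mice given vehicle had an adipocyte score of 2.02. Without the arrays of adipocyte score over 1, which include this animal, the differences were 0.49 for Acly, 0.58 for Acaca and 0.36 for Scd1. Those of Fasn and Elovl6 were then 0.06 and -0.04, and none of these enzymes was called.

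The highest levels of 4 of these 5 enzymes fell on the 2 arrays of wild-type mice given 4b with high Ucp1. Acly in wild-type mice given 4b was 13.86, 10.85, 13.08, 10.77 and 10.65. Acaca, the rate-limiting carboxylase, was 13.18, 9.33, 12.51, 9.22 and 8.57 in the same order. Elovl6 was 11.47, 6.93, 11.23, 5.84 and 6.02. In each of the 3, animals 1 and 3 lay above all other arrays of the study and the other 3 animals within the range of wild-type mice given vehicle, except for Acaca in animal 5, whose 8.57 lay below 9.01, the lowest with vehicle. Fasn, the synthase itself, had 6.20, 5.33, 6.36, 5.51 and 5.54 in this group, also highest in animals 1 and 3, but its probe was above background on only 8 of the 16 arrays. Scd1, the desaturase, was 14.16, 11.95, 14.30, 12.41 and 12.17, and here animal 4 of the wild-type mice given vehicle was the highest of all at 14.40. That animal had an adipocyte score of 2.02, next to 2.16 and 1.60 in animals 1 and 3 of the wild-type mice given 4b.

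**Figure D2:**
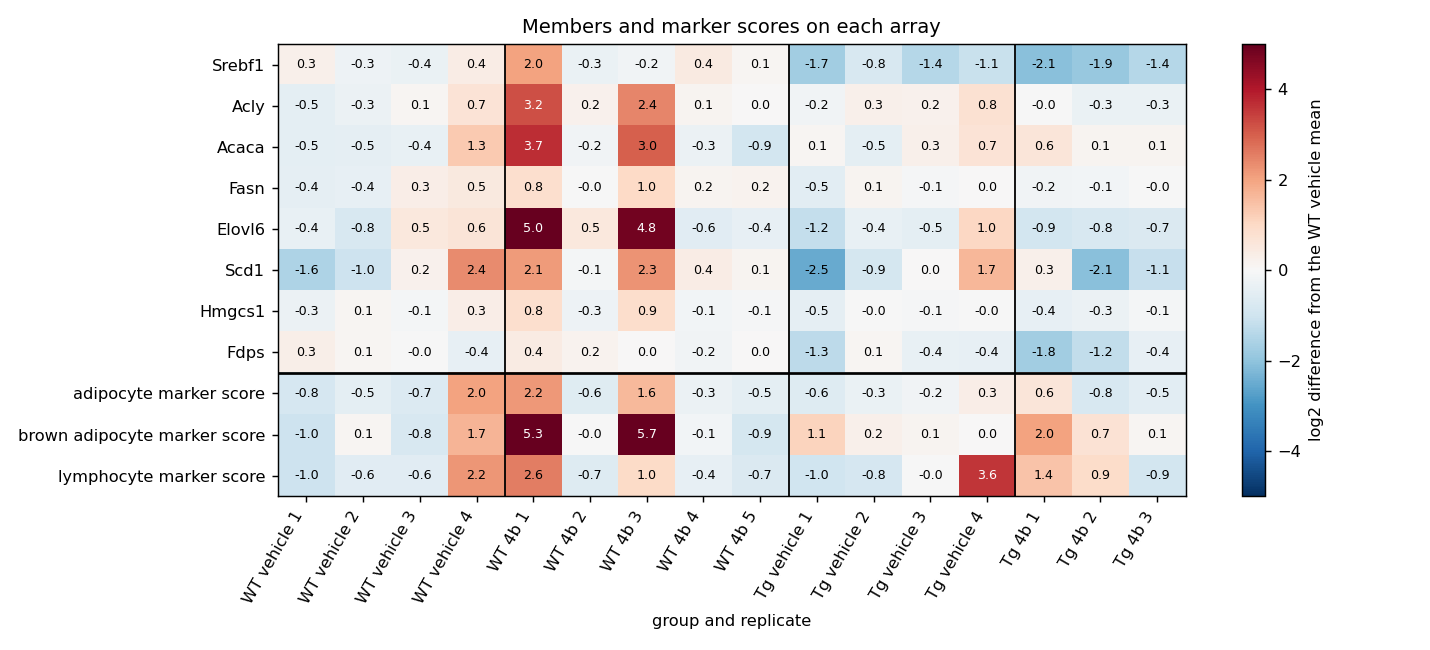
Log2 level of each of the 8 genes on each of the 16 arrays, less the mean of the vehicle-treated wild type, with the adipocyte, brown adipocyte (Ucp1 and Cidea) and lymphocyte scores of the same arrays below. Animals 1 and 3 of the wild-type mice given 4b carry the highest Acly, Acaca and Elovl6 and the brown adipocyte scores of 5.33 and 5.69.

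In wild-type mice, 4b against vehicle gave a positive log2 difference for 8 of the 8 genes and no call. The median over the 8 was 0.69, against -0.02 over all genes tested. The limma test called 0 of the 8 and 0% of all genes. At an unadjusted p under 0.05 it marked 0 of the 8 and 2.67% of all genes. The differences were 1.20 ± 0.57 (SE) for Acly, 1.88 ± 1.04 for Elovl6, 1.06 ± 0.80 for Acaca, 0.96 ± 0.89 for Scd1 and 0.43 ± 0.25 for Fasn. The groups overlapped for all 8 genes, and failed to overlap for 0.699% of all genes. Without the 2 arrays with high Ucp1 the signs divided, 5 of 8 being positive, and the median fell to 0.04. Acly was then at 0.12 ± 0.27 (SE), Elovl6 at -0.16 ± 0.47 and Acaca at -0.46 ± 0.41.

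In transgenic mice given 4b, Acly and Elovl6 varied little across animals. Acly was 10.63, 10.31 and 10.32. Elovl6 was 5.52, 5.63 and 5.72, with its probe only just above background (detection p of 0.016 to 0.028). Scd1 ranged more widely, at 12.30, 9.96 and 10.90. Against transgenic mice given vehicle, 0 of the 8 genes were called by limma, where 0.00971% of all genes were, a single gene. At an unadjusted p under 0.05 it marked 0 of the 8 and 14.7% of all genes. The groups overlapped for all 8 genes, where 8.58% of all genes did not overlap. Of the 8 differences 7 were negative, with a median of -0.51 against -0.02 over all genes. Acaca was the exception at 0.14 ± 0.91 (SE), and Fasn stood at -0.01 ± 0.28 (SE), with no transgenic array given 4b above background.

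Between genotypes with 4b, 2 of the 8 genes were called, Srebf1 and Fdps, both lower in transgenic mice. This is near the share of all genes, of which 28.3% were called and 12.8% called lower. All 8 differences were negative, with a median of -1.32 against -0.004 over all genes. The groups did not overlap for 4 of the 8, Srebf1, Acly, Elovl6 and Fdps, as for 31.1% of all genes. At an unadjusted p under 0.05 there were these same 4 of 8, against 40% of all genes. Acly differed by -1.42 ± 0.62 (SE) and Elovl6 by -2.68 ± 1.13 (SE), with limma adjusted p-values of 0.0983 and 0.0896. Elovl6 passed without animal 4 (-3.29, adjusted p = 0.0393 in limma) or animal 5 (-3.25, adjusted p = 0.0454) of the wild-type mice given 4b. It also passed with sex, read from Xist and Eif2s3y, as a covariate (-2.79, adjusted p = 0.0468 in limma). For Scd1, Fasn, Hmgcs1 and Acaca the limma adjusted p-values were 0.147, 0.146, 0.143 and 0.548. Scd1 passed with array weights (-2.41, adjusted p = 0.0113 in limma).

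The wild-type side of this comparison holds the 2 arrays with high Ucp1. Without them Acly differed by -0.34 ± 0.28 (SE), Elovl6 by -0.64 ± 0.50 and Scd1 by -1.12 ± 1.04. Acaca changed sign without them, to 0.74 ± 0.44 (SE) with a limma adjusted p of 0.245. The number of members called without them stayed at 2, and the median over the 8 moved to -0.49. With all arrays kept and the Ucp1 and Cidea score as a covariate, Acly at -0.98 and Elovl6 at -1.91 were called lower instead. Their limma adjusted p-values were 0.0225 and 0.0341. Whether 4b acted differently in the genotypes was tested by the interaction, in which limma called 0 of the 8 and 0% of all genes. At an unadjusted p under 0.05 it marked 0 of the 8 and 10.1% of all genes. The smallest adjusted p among the 8 was 0.513, for Acly at -1.68 ± 0.86 (SE).

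**Figure D3:**
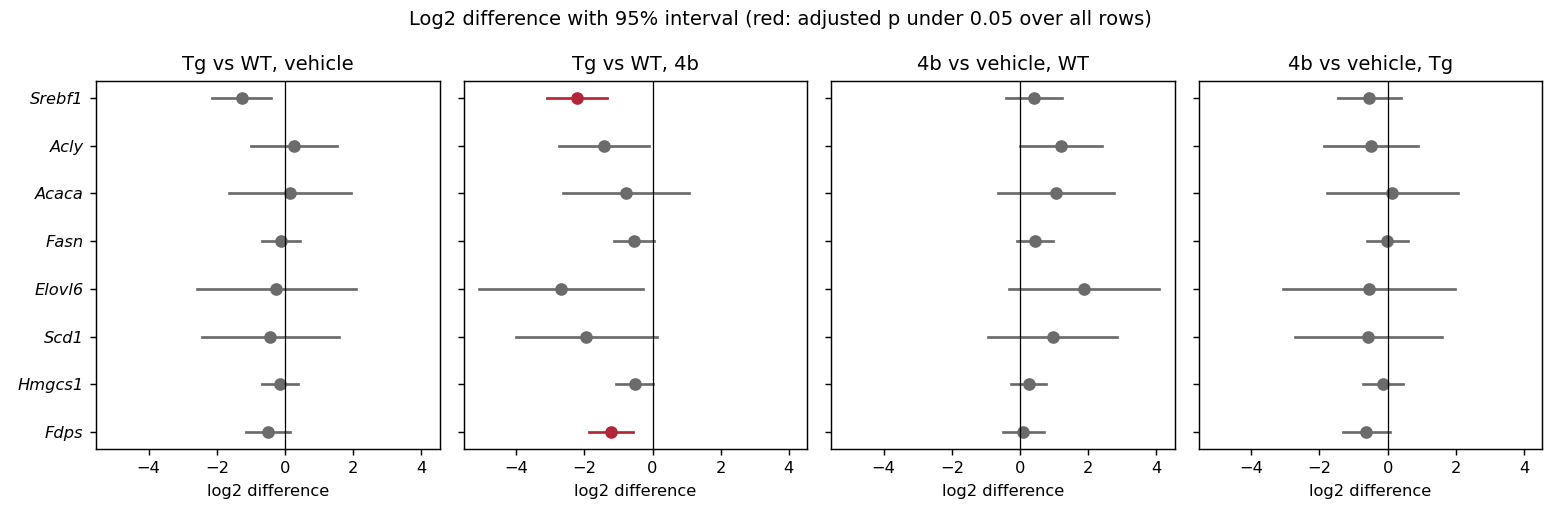
Log2 difference of each of the 8 genes in the genotype and 4b comparisons, with points for the difference, lines for its 95% interval and red for an adjusted p under 0.05, over all 16 arrays. In transgenic against wild-type mice the Srebf1 interval lies below 0 with vehicle (-2.13 to -0.41) and with 4b (-3.11 to -1.34), and with 4b all 8 points lie below 0.

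In the sterol branch, Fdps was lower in transgenic mice and Hmgcs1 was not called. Fdps, which makes the farnesyl diphosphate that feeds sterols and prenylated proteins, had 10.70, 10.48, 10.38 and 9.99 log2 units in wild-type mice given vehicle and 10.81, 10.56, 10.41, 10.22 and 10.40 in those given 4b. In transgenic mice it was 9.07, 10.48, 10.03 and 9.98 with vehicle and 8.63, 9.17 and 9.99 with 4b. The wild-type animals lay between 9.99 and 10.81 and the transgenic animals between 8.63 and 10.48, so the genotypes overlapped. The probe was above background on all 16 arrays, and the 2 arrays with high Ucp1, at 10.81 and 10.41, did not stand apart for it.

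With vehicle, Fdps differed between genotypes by -0.50 ± 0.30 (SE), with overlapping groups and a limma adjusted p of 0.368. With 4b the means were 10.48 ± 0.22 (SD, n = 5) and 9.26 ± 0.69 (SD, n = 3), a 2.32-fold lower level in transgenic mice, and the log2 difference was -1.22 ± 0.31 (SE), adjusted p = 0.0096 in limma. Without animal 1 of the transgenic mice given 4b it was -0.90 ± 0.32 (SE) and no longer called, at an adjusted p of 0.0723 in limma. Without the 2 wild-type arrays with high Ucp1 it was -1.13 ± 0.36 (SE), adjusted p = 0.041 in limma. Averaged over treatments, Fdps was 1.81-fold lower in transgenic mice (limma adjusted p = 0.007), and the exact permutation test gave p = 0.00227, or 0.00908 adjusted over the 8 genes. The effect of 4b within transgenic mice was -0.63 ± 0.32 (SE), adjusted p = 0.385 in limma.

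Hmgcs1, the cytosolic HMG-CoA synthase, varied least of the 8 on the log2 scale, from 11.32 to 12.65. Its values in wild-type mice given vehicle were 11.46, 11.86, 11.67 and 12.10, and in those given 4b 12.60, 11.50, 12.65, 11.65 and 11.72. In transgenic mice they were 11.32, 11.75, 11.71 and 11.77 with vehicle and 11.36, 11.47 and 11.67 with 4b. Animals 1 and 3 of the wild-type mice given 4b were again the highest. The genotype difference was -0.14 ± 0.25 (SE) with vehicle and -0.52 ± 0.26 (SE) with 4b, and -0.12 ± 0.19 (SE) with 4b without those 2 arrays.

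The genes whose values over the 16 arrays were most like those of Fasn were Efna5 (Pearson r = 0.93, Spearman rho = 0.803), Pgam1, Pygl, Nipal2 and Slc22a18, with r of 0.889 or more. Those most like Hmgcs1 were Ifi27 (r = 0.931, rho = 0.921), Paqr9, Fabp5, Slc25a1 and Ppp2r5a, with r of 0.921 or more. Slc25a1 is the citrate carrier that exports the substrate of Acly. All points share the arrays, and r fell without the 2 arrays farthest from the median, which were animals 1 and 3 of the wild-type mice given 4b. For Efna5 it was then 0.818, for Ifi27 0.866 and for Slc25a1 0.715 (n = 14).

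Beyond the 8 genes, 24 other genes of fatty acid synthesis were listed, of which 19 were tested. The lists that follow were chosen with earlier results of these data known. With vehicle, 1 of the 19 was called, lower in transgenic mice, the same share as the 5.3% of all genes. This was Me1, the malic enzyme that supplies NADPH for fatty acid synthesis, at 10.84 to 11.02 in wild-type and 9.47 to 10.35 in transgenic mice. The groups did not overlap, as for 12.9% of all genes, and the log2 difference was -0.85 ± 0.21 (SE), adjusted p = 0.0284 in limma. With 4b Me1 differed by -1.08 ± 0.22 (SE), adjusted p = 0.00259 in limma. Without the 2 arrays with high Ucp1 it was called in both comparisons, at -0.85 and -0.88.

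With 4b, transgenic mice had 1 of the 19 called higher and 3 lower, beside 28.3% of all genes called, and the list's median was -0.42. The 1 higher was Mlycd, which breaks down malonyl-CoA, the product of Acaca, at 10.50 to 11.27 in wild-type and 12.42 to 12.91 in transgenic mice, a log2 difference of 1.70 ± 0.23 (SE), adjusted p = 0.000466 in limma. Mid1ip1, an activator of acetyl-CoA carboxylase, fell by 1.15 log2 units, with a limma adjusted p of 0.0115. Acsl5, an acyl-CoA synthetase, fell by 1.40 (adjusted p = 0.0274 in limma). Mlycd and Mid1ip1 passed without the 2 arrays with high Ucp1, and Acsl5 did not, at -0.85 with a limma adjusted p of 0.145. For 4b against vehicle limma called 0 of the 19 in either genotype, and at an unadjusted p under 0.05 it marked 0 in wild-type and 2 in transgenic mice, beside 2.67% and 14.7% of all genes.

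**Figure D4:**
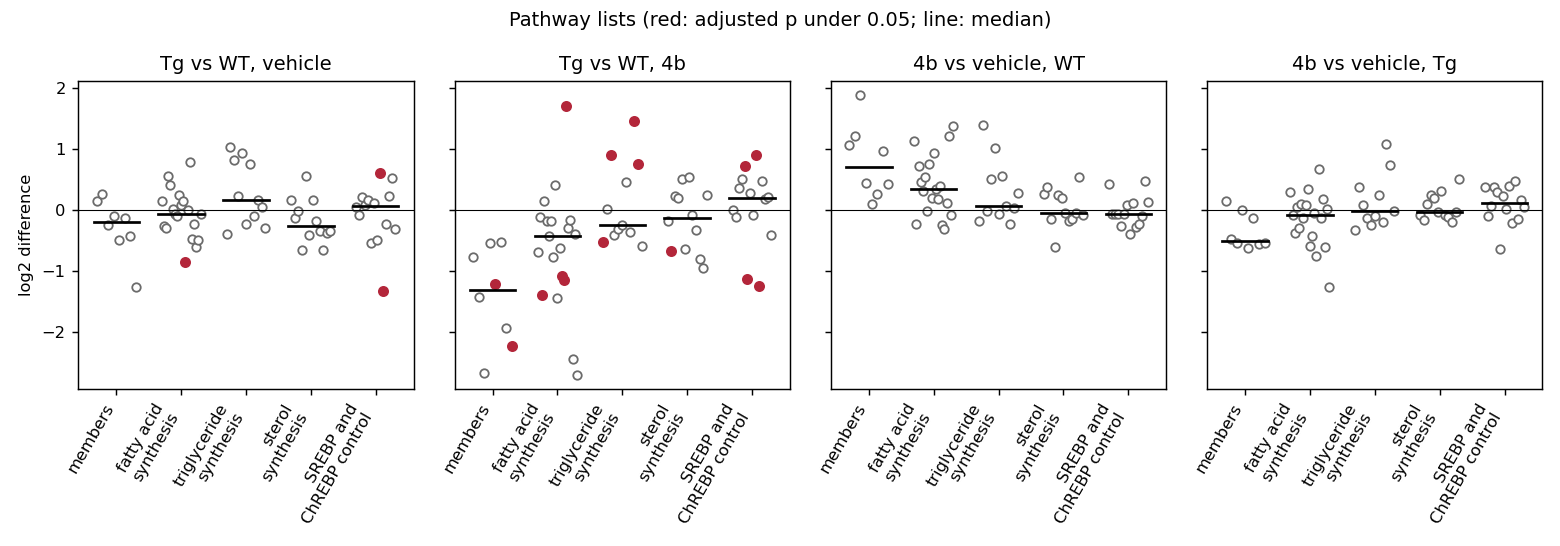
Log2 difference of each gene, 1 point per gene, for the 8 genes and the fatty acid, triglyceride, sterol and SREBP and ChREBP control lists in the genotype and 4b comparisons, with called genes in red and a line at each list's median. In the genotype comparison with 4b the called genes of the 4 lists number 4 of 19, 4 of 11, 1 of 12 and 4 of 14.

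Of 11 tested genes of triglyceride synthesis, limma called 0 with vehicle (2 at an unadjusted p under 0.05, beside 21.3% of all genes) and, in transgenic mice given 4b, 3 higher and 1 lower. The 4 calls of 11 stand near the 28.3% of all genes. Lpin1, the muscle phosphatidate phosphatase and a coactivator, was 10.70 to 11.62 in wild-type and 12.04 to 12.75 in transgenic mice, a log2 difference of 1.46 ± 0.27 (SE), adjusted p = 0.00159 in limma. Its relative Lpin3 rose by 0.75, and the acyltransferase Agpat3 by 0.90, with limma adjusted p-values of 0.0376 and 0.0498. The Lpin3 probe was above background on 2 of 5 wild-type and 2 of 3 transgenic arrays. Agpat1 fell by 0.53 (adjusted p = 0.041 in limma). Without the 2 arrays with high Ucp1 the calls were Lpin1 at 1.34 and Agpat2, the acyltransferase of adipose tissue, at 1.73 with a limma adjusted p of 0.0499. With all arrays Agpat2 stood at 0.01.

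Of 12 other tested genes of sterol synthesis, limma called 0 with vehicle (2 at an unadjusted p under 0.05, beside 21.3% of all genes) and 1 with 4b, a smaller share than the 28.3% of all genes. This was Dhcr7, the last reductase of cholesterol synthesis, on 0 of 3 arrays above background in transgenic mice given 4b and at least 1.12-fold lower there, adjusted p = 0.0201 in limma. The list's median was -0.14 with 4b. Without the 2 arrays with high Ucp1, Dhcr7 was not called, at a limma adjusted p of 0.0701, and Lss, which makes lanosterol, and the sterol isomerase Ebp were called higher, by 0.95 and 0.43.

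Among 14 tested genes that control SREBP and ChREBP, 1 was called higher and 1 lower with vehicle, beside 5.3% of all genes called. Both encode beta subunits of AMPK, the kinase that phosphorylates and inhibits acetyl-CoA carboxylase. Prkab2, the beta 2 subunit, was 9.76 to 10.12 in wild-type and 8.40 to 8.91 in transgenic mice given vehicle, a log2 difference of -1.33 ± 0.19 (SE), adjusted p = 0.00194 in limma. Prkab1, the beta 1 subunit, rose by 0.60 (adjusted p = 0.025 in limma). With 4b the same subunits differed by -1.25 and 0.89, and both were called with and without the 2 arrays with high Ucp1.

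With 4b, 2 of these 14 were higher and 2 were lower by the test, a share like the 28.3% of all genes, the other pair being Mlxipl and Mlx. Mlxipl, which encodes ChREBP, the carbohydrate-responsive factor that shares lipogenic targets with SREBP-1, fell by 1.13, and its partner Mlx rose by 0.71, with a probe above background on 1 of 5 wild-type and 3 of 3 transgenic arrays. Their limma adjusted p-values were 0.013 and 0.00552, and without the 2 arrays with high Ucp1 Mlxipl was no longer called, at -0.87 with 0.0688. Srebf2, which encodes SREBP-2, was not called. It had 5.95 to 7.05 in wild-type and 6.72 to 7.29 in transgenic mice given vehicle, a difference of 0.52 ± 0.25 (SE), and the limma adjusted p-values were 0.243 with vehicle and 0.587 with 4b.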

How the data were processed

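Total RNA, extracted with a column kit and treated with DNase per the labels' protocols, was labelled with biotin and hybridised to 16 arrays. The non-normalized table holds 1 linear intensity per probe and array, as deposited, and a detection p-value beside each, per the file headers. The authors' second deposited table holds log2 values, which gave the members the same differences as log2 and quantile normalization without background correction. No source used here says how the detection p-values were made.

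Background was corrected by normexp from the detection p-values (offset 16) with limma 3.58.1 in R 4.3.3, followed by quantile normalization and log2. Probes with a detection p under 0.05 on at least 3 arrays were kept, 13706 of 25697, and the kept probe with the highest mean stood for a gene. One limma fit of 4 group means covered the 16 arrays (12 residual and 3.09 prior degrees of freedom). Tests were two-sided, with p-values adjusted by Benjamini-Hochberg over 10295 genes. Genes are called at an adjusted p under 0.05. For a group with 0 arrays above background, the fold is against the higher, per array, of the lowest detected signal and the probe's own value. Quantile normalization hides a change of most genes in 1 direction, and the offset compresses changes of dim probes. The number of arrays limits the precision.

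Symbols came from the platform annotation (23978 probes with 1 symbol). Each label carries its own animal number, but nothing else says how the samples were taken, so p-values measure the spread between these samples. Animals are numbered in order of deposit. Columns assigned to no sample numbered 0. The members and lists were chosen with earlier results of these data known. Named are all 8 members, of each pathway list up to 6 called genes by smallest p or otherwise at most 2, and the 5 genes most correlated with Fasn and with Hmgcs1. Agpat2, Lss, Ebp and the arrays with high Ucp1 were singled out after their values were seen. Lists of lymphocyte and macrophage markers were run beside the adipocyte lists. The fit was tested on simulated data. Alternatives covered background, normalization, the deposited log2 values, filters, probes, variance, covariates and leaving out arrays.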

Additional observations from a re-analysis of the deposited data

Results flagged for a closer look

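In 2 of 24 groups tested, the highest or lowest animal stood farther from the rest than the critical value for a group of that size, which chance gives in about 1 of 20 groups. Acaca was 10.83 log2 units in animal 4 of the wild-type mice given vehicle, where the other 3 animals had 9.01 to 9.13. The same animal had the adipocyte score of 2.02. Hmgcs1 was 11.32 in animal 1 of the transgenic mice given vehicle, where the other 3 had 11.71 to 11.77.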

How the results depend on the processing

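Srebf1 was called lower in transgenic mice given 4b under all 34 alternatives (log2 difference -2.41 to -1.04), and averaged over treatments under all 29 (-1.94 to -0.79). With vehicle, the members called went from 0 to 1, Srebf1, with array weights, without arrays of adipocyte score over 1, without the 2 animals numbered with 3 digits and without the 2 arrays with high Ucp1, to 2 with the share of probes detected as a covariate, and were 0 to 1 when each array was left out. With 4b, 2 became 7 with that covariate and 4 (Srebf1, Fdps, Acly and Elovl6) with the Ucp1 and Cidea score as a covariate, and 1 to 3 when each array was left out. Averaged over treatments, 2 became 7 with the share detected as a covariate and stayed at 2 when each array was left out. For 4b in transgenic mice, array weights gave 1, Fdps (limma adjusted p = 0.024), against 0, and leaving out each array gave 0. For 4b in wild-type mice and for the interaction the count was 0 under all 34. Acaca averaged over treatments, -0.32 with all arrays, was 0.66 without arrays of adipocyte score over 1 (limma adjusted p = 0.0216). The cause of these shifts was not tested. Over all genes the calls ranged from 124 to 1049 around 546 with vehicle, from 1577 to 4768 around 2911 with 4b, from 0 to 1778 around 1 for 4b in transgenic mice and from 0 to 89 around 0 for the interaction. Median scaling moved the median of all genes to 0.12 and 0.11 in the genotype comparisons with vehicle and 4b. No paired analysis was possible because the labels give each animal a number of its own, shared with no other. The Srebf1 and Fasn probes were near background, which limits how well the size of their differences is known. The same limit applies to Elovl6, above background on 14 of 16 arrays and with detection p-values of 0.016 to 0.028 in transgenic mice given 4b. Acaca with 4b ran from -1.27 to 0.74.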

Other observations

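Among the marker lists of other cell types, 2 of the 13 tested adipocyte markers were called between genotypes with 4b, beside 28.3% of all genes. Of the 13, 11 had a negative difference, with a median of -0.81 against -0.004 over all genes. The wild-type side holds the 2 arrays with high Ucp1, whose adipocyte scores were 2.16 and 1.60. The other animals of that group had -0.61 to -0.29. The marker results here are for all arrays and are not given without those 2. Plin4, a lipid droplet coat protein also made in muscle, was 1.44 ± 0.32 (SE) log2 units higher in transgenic mice (limma adjusted p = 0.00509), and Aqp7, a glycerol channel, was lower, at -2.18 ± 0.61 (SE) (limma adjusted p = 0.0155), being above background on 1 of 3 transgenic arrays. Of 6 tested macrophage markers, 1, Adgre1, was called, at -1.64 ± 0.47 (SE), adjusted p = 0.0177 in limma. All 6 differences were negative, with a median of -0.84. At an unadjusted p under 0.05 limma marked 3 of the 6, beside 40% of all genes. Of 8 tested lymphocyte markers, limma called 0 in any of the comparisons, and 0 had an unadjusted p under 0.05. The lymphocyte score was highest, at 3.57, in animal 4 of the transgenic mice given vehicle, where Scd1 was 13.72 against 9.52 to 12.06 in the other 3 animals of its group. The adipocyte score of this animal, 0.33, was also the highest of its group, the other 3 having -0.64 to -0.16. Over the 16 arrays Scd1 correlated with the adipocyte score (Pearson r = 0.846, Spearman rho = 0.841). Without the arrays of adipocyte score over 1, r was 0.673 (n = 13). These are descriptions, and a link of Scd1 with the lymphocyte score was not tested.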
